A study of Homo sapiens with 4 samples.

Results

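The genes described are 7 members of the sodium pump system, chosen by name from 62710 Ensembl genes: the beta subunits ATP1B1, ATP1B2 and ATP1B3 and the FXYD regulators FXYD1, FXYD3, FXYD5 and FXYD6. Their messenger RNA was measured in 4 poly(A) RNA-seq libraries, from HGC27 and MKN45, which are 2 established human lines of gastric cancer. Each line was grown for 24 h with 0.3 µM periplocymarin, a cardiac glycoside, or with 0.1% DMSO, the vehicle, and each line and treatment has 1 library. Both lines were kept in the same medium, and the labels name no genetic change in either.

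The Na,K-ATPase is the membrane pump that moves sodium out of the cell and potassium in, at the cost of ATP. It is built from a catalytic alpha subunit, which carries the cardiac glycoside site, and a glycosylated beta subunit that is needed for folding, exit from the endoplasmic reticulum and delivery to the surface. FXYD proteins are small single-span membrane proteins, named after a shared sequence motif, that bind the pump and tune its affinity for ions or its turnover. In epithelia the beta subunit also takes part in adhesion between neighbouring cells.

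Levels are given as deposited, in FPKM, read counts scaled to gene length and library size. The reads behind each value were recovered from the steps between low values and came to 24888399 to 36565597 per library. Because a group is 1 library, differences between treatments inside 1 line are unreplicated and carry no p-value. Ranges after such values are 95% intervals (exact Poisson for a level, Clopper-Pearson for a ratio) and cover counting error only. The labelled cells were checked against fixed markers. In MKN45 10 epithelial markers summed to 1641 and 2880 FPKM in vehicle and treated cells and 6 mesenchymal markers to 0.693 and 0.506 FPKM. In HGC27 the epithelial sum was 0.582 and 0.401 FPKM and the mesenchymal sum 611 and 795.5 FPKM, so the defining epithelial keratins are close to absent from that line. Not every marker followed its sum. The epithelial list's CLDN18 and GKN1 were at no more than 0.0146 FPKM in MKN45, and the mesenchymal list's CDH2 at no more than 0.0433 FPKM in HGC27. Leukocyte and endothelial markers summed to at most 2.47 FPKM in any library, nearly all of it CD68 in MKN45.

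Among beta subunits, ATP1B3, the broadly expressed beta-3 subunit, was the main transcript of HGC27. It was at 36.7 FPKM (35.4 to 38.0) in vehicle and 116 FPKM (114 to 119) in treated HGC27, and at 73.7 FPKM (72.0 to 75.4) in vehicle and 102 FPKM (99.9 to 105) in treated MKN45. Both treated libraries were above both vehicle libraries. The treated library was 3.17-fold (3.04 to 3.31) higher in HGC27 and 1.39-fold (1.34 to 1.44) higher in MKN45. The order of the lines also turned over. MKN45 held 2.01-fold (1.93 to 2.097) as much ATP1B3 as HGC27 under vehicle and 0.88-fold (0.85 to 0.91) as much under periplocymarin. Whether the lines respond differently cannot be tested with 1 library per line and treatment.

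ATP1B1, the beta-1 subunit that predominates in most epithelia, was a transcript of MKN45. It was at 0.285 FPKM (0.235 to 0.343) and 0.822 FPKM (0.721 to 0.934) in vehicle and treated HGC27, from 113 and 238 reads, and at 27.7 FPKM (27.2 to 28.2) and 45.1 FPKM (44.3 to 45.9) in MKN45, from 12559 and 13221 reads. The treated library was the higher one in each line, by 2.88-fold (2.297 to 3.64) in HGC27 and 1.63-fold (1.59 to 1.67) in MKN45, while the 2 lines did not overlap. MKN45 was 97.3-fold (80.8 to 118) higher than HGC27 under vehicle and 54.9-fold (48.3 to 62.6) higher under periplocymarin.

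ATP1B2, the beta-2 subunit best known from glia, had 30 reads (0.268 FPKM, 0.181 to 0.383) in vehicle and 22 reads (0.270 FPKM, 0.169 to 0.408) in treated HGC27. It had 0 reads in both MKN45 libraries, which allows up to 0.0235 and 0.0363 FPKM (3 reads per library). Set against that limit, and with the HGC27 reads taken as exact, HGC27 was at least 11.4-fold higher under vehicle and at least 7.42-fold higher under treatment. With counting error in both libraries the lower Clopper-Pearson limits of these folds were 8.73 and 5.55. In HGC27 the treated library held 1.004 times (0.552 to 1.80) the vehicle level, so a difference was not detectable at this depth.

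**Figure D1:**
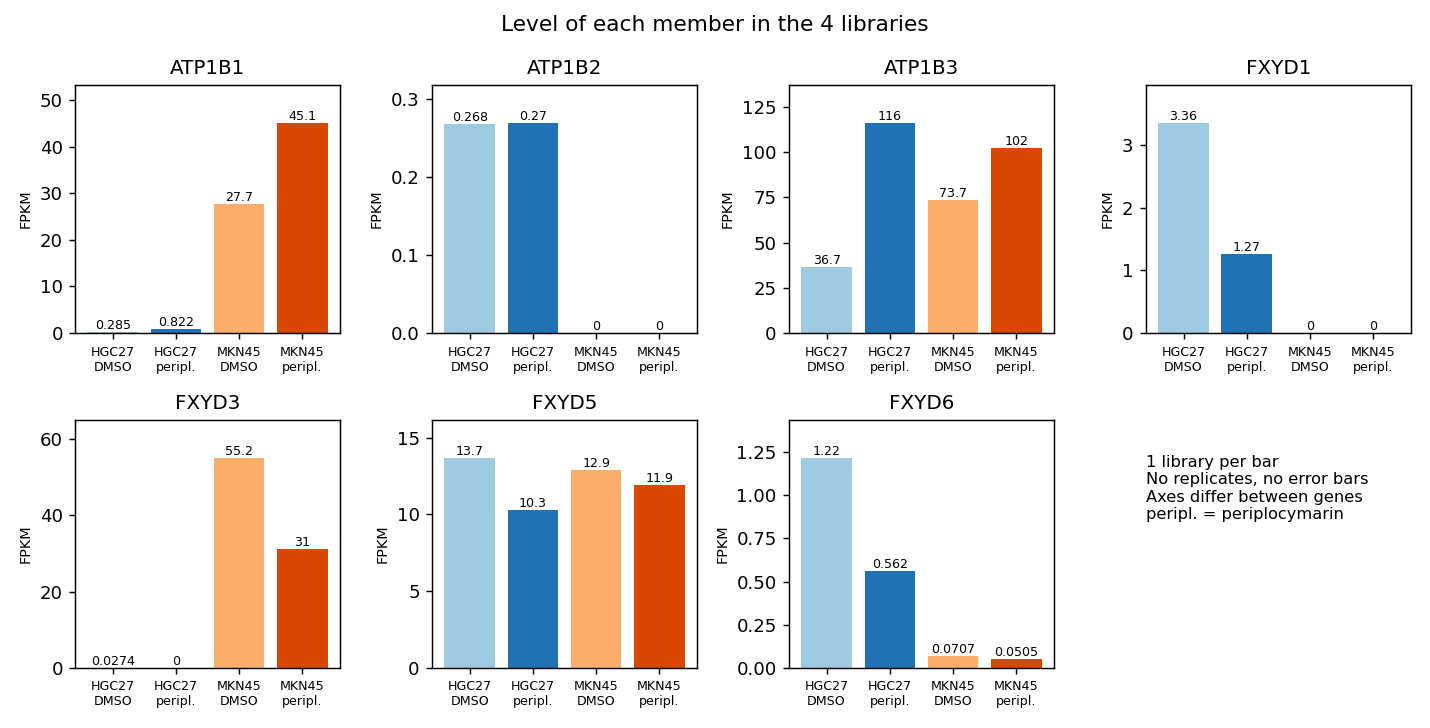
FPKM of each member in the 4 libraries, 1 bar per library from 0, with a separate axis for each gene and no error bars because there are no replicates. ATP1B1 and FXYD3 stand in MKN45 (27.7 and 55.2 FPKM under vehicle), FXYD1 stands in HGC27 (3.36 FPKM), and ATP1B3 and FXYD5 are present in every library.

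FXYD3, also called Mat-8, is a regulator found in stomach, colon and many carcinomas. It was at 55.2 FPKM (53.9 to 56.5) in vehicle and 31.0 FPKM (29.8 to 32.3) in treated MKN45, so the vehicle library was 1.78-fold (1.70 to 1.86) higher. In HGC27 it had 3 reads in the vehicle library (0.0274 FPKM) and 0 in the treated one, which allows up to 0.0376 FPKM. Under vehicle the ratio of MKN45 to HGC27 was 2011 with a counting interval of 688 to 9753, and under periplocymarin MKN45 was at least 826-fold higher against 3 reads, with its own reads taken as exact. The lower counting limit of that fold was 671.

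FXYD5, or dysadherin, is a larger, glycosylated family member linked to weakened cell adhesion. It differed least of the FXYD genes across the 4 libraries. It was at 13.7 FPKM (13.0 to 14.5) and 10.3 FPKM (9.53 to 11.04) in vehicle and treated HGC27, and at 12.9 FPKM (12.2 to 13.6) and 11.9 FPKM (11.1 to 12.7) in MKN45. In HGC27 the treated library held 0.749-fold (0.683 to 0.821) the vehicle level. In MKN45 the ratio was 0.923 (0.847 to 1.01), which counting error alone covers. The vehicle libraries of the lines also lay within counting error of each other, at 0.942-fold (0.874 to 1.02) in MKN45 over HGC27.

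FXYD1, or phospholemman, is the kinase-regulated FXYD protein of heart and skeletal muscle. It was at 3.36 FPKM (2.92 to 3.85) in vehicle and 1.27 FPKM (0.960 to 1.64) in treated HGC27, from 207 and 57 reads, a vehicle level 2.65-fold (1.97 to 3.62) higher. In MKN45 it had 0 reads in both libraries, which allows 0.0426 and 0.0659 FPKM, so HGC27, with its reads taken as exact, was at least 78.8-fold higher under vehicle and at least 19.2-fold higher under treatment. With counting error in both libraries the lower limits were 63.5 and 15.1. The reads of FXYD1 cannot be separated with certainty from those of gene models that share its exons. ENSG00000221857, a noncoding model on the same strand with 502 shared exon bases, had 0 reads in vehicle and 29 in treated HGC27. ENSG00000279619, on the other strand with 467 shared bases, had 97 and 7. Their part in the FXYD1 values was not tested.

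FXYD6, or phosphohippolin, is best known from brain. It had 196 reads in vehicle and 66 in treated HGC27, at 1.22 FPKM (1.05 to 1.40) and 0.562 FPKM (0.435 to 0.715), and 13 and 6 reads in MKN45, at 0.0707 and 0.0505 FPKM. The vehicle level was 2.17-fold (1.63 to 2.91) higher in HGC27, and 1.40-fold (0.497 to 4.50) higher in MKN45, where no difference was detectable. FXYD6 shares 390 exon bases with the read-through model FXYD6-FXYD2, listed at 0 in all 4 libraries, and 625 with FXYD6-AS1, which was at 0 except for 0.185 FPKM in vehicle MKN45.

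**Figure D2:**
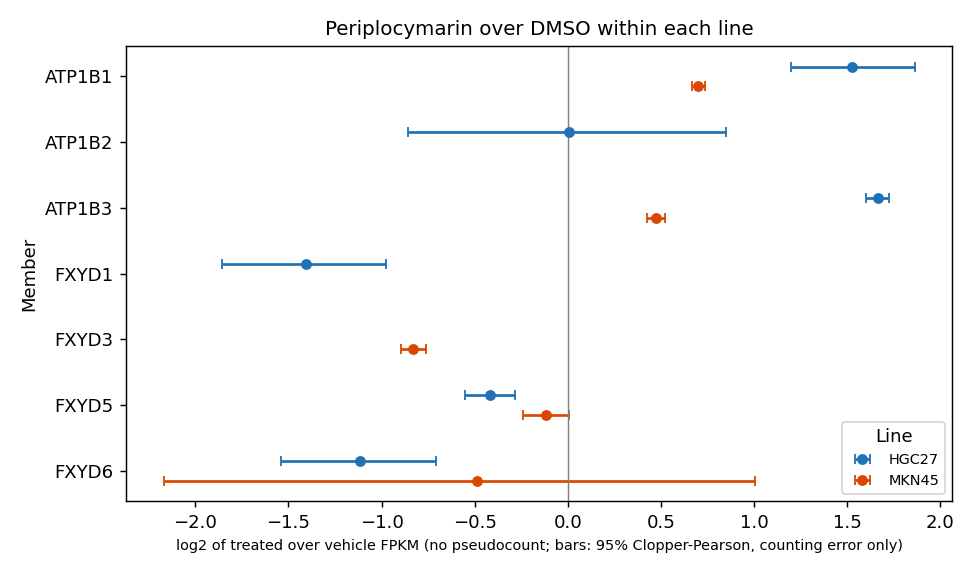
Log2 of the periplocymarin over the DMSO level for each member in HGC27 and MKN45, with 95% Clopper-Pearson intervals from the recovered reads as bars (counting error only). ATP1B1 and ATP1B3 lie to the right of 0 in both lines. FXYD1, FXYD5 and FXYD6 lie to the left in HGC27 and FXYD3 in MKN45, with intervals clear of 0. The MKN45 intervals of FXYD5 and FXYD6 and the HGC27 interval of ATP1B2 cross 0. Members with 0 reads in a library of a line have no point there.

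Across treatments the members were tested over both lines in 1 limma-trend fit of log2(FPKM + 1) that kept the line as a block, over 12374 genes averaging 1 FPKM and 10 reads or more. Of the 7 members 5 passed that filter. ATP1B2 and FXYD6 were too low. None of the 5 passed an adjusted p of 0.05, 1 had an unadjusted p under 0.05, and with limma-voom on recovered reads 1 passed. Among all genes tested 6.78% were called, 28.4% had an unadjusted p under 0.05 and 12.2% were called with limma-voom, so 1 of 5 is near the background in the last pair. ATP1B3 had a fitted log2 difference of 1.05 ± 0.33 (moderated SE; limma, Benjamini-Hochberg adjusted p = 0.0757) and ATP1B1 of 0.59 ± 0.28 (adjusted p = 0.202), each higher in both lines. The FXYD genes tested were lower, without passing. The fitted values were -0.47 ± 0.36 for FXYD1, -0.42 ± 0.31 for FXYD3 and -0.25 ± 0.28 for FXYD5 (limma adjusted p = 0.414, 0.392 and 0.597). FXYD1 had 0 reads in both MKN45 libraries and FXYD3 had 3 and 0 in HGC27, so the fitted value of each rests on 1 line. The fit has 1 residual degree of freedom per gene and 8.59 prior degrees of freedom, and nothing in the labels says that libraries come from separate cultures, so its p-values measure the spread between these libraries.

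Within a line a gene was counted as different at a log2(FPKM + 1) difference of at least 1 and measured at a mean of at least 1 FPKM there. In HGC27 3 members were measured on the deposited values, ATP1B3, FXYD1 and FXYD5. ATP1B3, at 1.64, was past that size, as were 9.72% of measured genes in the upward direction. None was lower by that size, against 10.4% of genes. FXYD1 was at -0.94. In MKN45 4 members were measured and none was past it in either direction, against 8.21% of genes higher and 8.94% lower. FXYD3 was nearest, at -0.81, then ATP1B1 at 0.68 and ATP1B3 at 0.47.

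These differences depend on how libraries are put on 1 scale. The deposited values carry a factor beyond the read total, and scaling to totals alone shifted the median difference of all measured genes by -0.28 in HGC27 and -0.18 in MKN45. On that scale ATP1B3 was at 1.30 in HGC27 and 0.25 in MKN45, ATP1B1 at 0.46 in MKN45, FXYD3 at -1.03 in MKN45, FXYD5 at -0.71 and -0.31, and FXYD1 at -1.20 in HGC27. With quantile normalization ATP1B3 was at 1.06 in HGC27 and 0.09 in MKN45, FXYD3 at -1.16 and FXYD5 at -0.67 and -0.32. The direction of ATP1B3, ATP1B1, FXYD3, FXYD5 and FXYD1 was the same under all 3 scalings in each line in which they were measured.

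The lines were compared in the same fit, with MKN45 minus HGC27 as the contrast and treatment as the second term. In this comparison 36.0% of all genes tested were called. FXYD3 was higher in MKN45 by 5.39 ± 0.31 on the log2(FPKM + 1) scale (limma adjusted p = 1.93e-06) and ATP1B1 by 4.57 ± 0.28 (adjusted p = 3.06e-06). FXYD1 was lower in MKN45, at -1.65 ± 0.36 (adjusted p = 0.00585). ATP1B3 (0.40 ± 0.33) and FXYD5 (0.06 ± 0.28) did not pass (adjusted p = 0.371 and 0.893), and FXYD5 turned to -0.05 with quantile normalization and -0.12 with library totals alone. ATP1B1, FXYD1 and FXYD3 entered the fit through the line in which they are high, so their number among the members tested is no evidence about the set. FXYD1 no longer passed without a low-value filter (adjusted p = 0.108) or with treatment left out of the fit (adjusted p = 0.0530).

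Setting genes side by side per length, the order in vehicle HGC27 was ATP1B3, FXYD5, FXYD1, FXYD6, ATP1B1, ATP1B2 and FXYD3. The intervals of ATP1B1 and ATP1B2 overlapped there, while all other neighbours were apart. In treated HGC27 ATP1B1 stood above FXYD6. In vehicle MKN45 the order was ATP1B3, FXYD3, ATP1B1, FXYD5 and FXYD6, with ATP1B2 and FXYD1 at 0, and in treated MKN45 ATP1B1 stood above FXYD3. As shares of the 3 beta subunits, ATP1B3 made up 98.5% and 99.1% of the summed FPKM in vehicle and treated HGC27 and 72.7% and 69.4% in MKN45, the rest there being ATP1B1. The beta sum was 37.2 and 117 FPKM in vehicle and treated HGC27 and 101 and 148 FPKM in MKN45. Among the 4 FXYD genes FXYD5 made up 74.8% and 84.9% in HGC27, and FXYD3 made up 81.0% and 72.2% in MKN45. The FXYD sum was 18.3 and 12.1 FPKM in HGC27 and 68.1 and 43.0 FPKM in MKN45, lower in the treated library of each line.

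The place of ATP1B1 in that order rests on the length used for it. The length implied by its FPKM values is 12290 bases, 4.15 times the 2962 exon bases of the GENCODE 29 annotation, whereas the other 6 members lie between 0.971 and 1.06 times theirs. At GENCODE 29 lengths ATP1B1 would be at 115 and 187 FPKM in vehicle and treated MKN45 against 74.6 and 104 FPKM for ATP1B3. This keeps all ATP1B1 reads, although some may fall outside the shorter model. ATP1B3 would then make up 39.4% and 35.7% of the beta sum in MKN45 and 96.2% and 97.0% in HGC27. Which beta subunit leads in MKN45 therefore cannot be read from the deposited FPKM alone. Fold ratios of ATP1B1 between libraries do not depend on the length. Its differences of log2(FPKM + 1), its fitted values and its place against the minimum of 1 FPKM do. At GENCODE 29 length ATP1B1 would be above 1 FPKM in both HGC27 libraries and so would count as measured there. The fits and within-line differences were computed on deposited values and not at GENCODE 29 lengths.

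**Figure D3:**
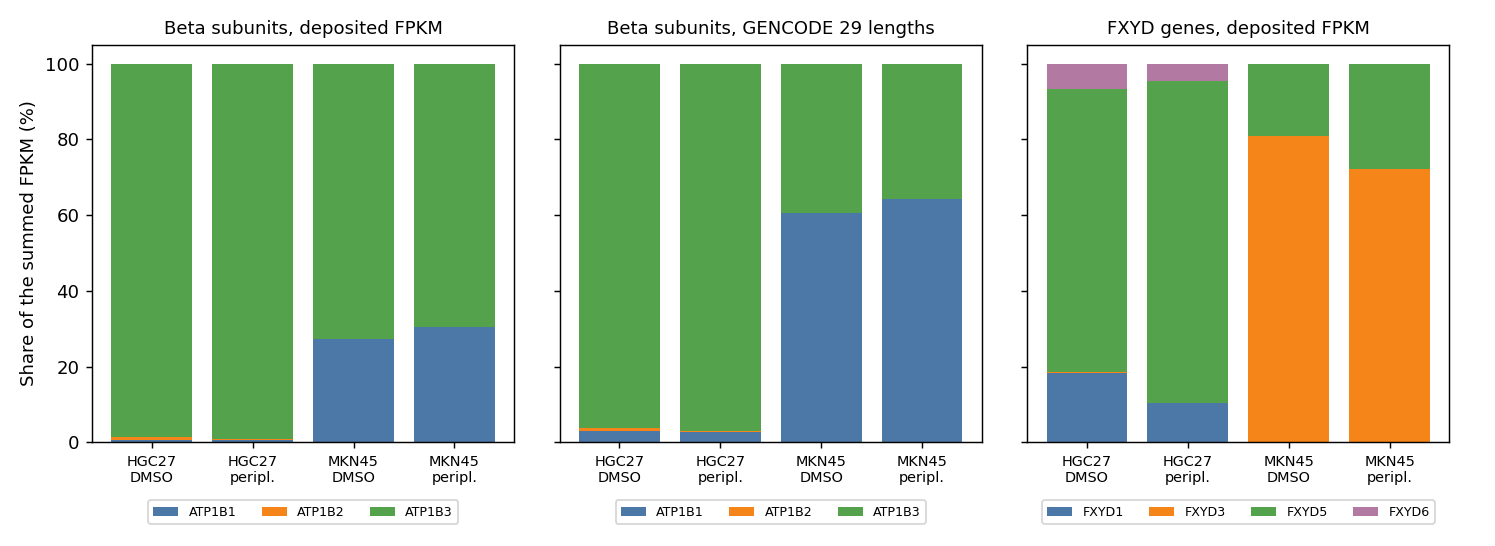
Share of the summed FPKM (%) taken by each beta subunit and each FXYD gene in the 4 libraries, with beta subunits shown on deposited values and on GENCODE 29 lengths. In MKN45 the ATP1B3 share under vehicle goes from 72.7% on deposited values to 39.4% on GENCODE 29 lengths, while HGC27 stays above 96% in both.

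In GRCh38 with the GENCODE 29 annotation ATP1B1 is on chromosome 1, plus strand, at 169105697 to 169132722. It shares 192 exon bases with NME7 on the minus strand, a gene that was at 1.10 to 2.42 FPKM in the 4 libraries. The overlap of the longer model behind the deposited ATP1B1 values is not known. ATP1B3 is on chromosome 3, plus strand, at 141876124 to 141926514, and shares no exon base with the antisense gene ATP1B3-AS1, listed at 0 in all 4 libraries. ATP1B2 is on chromosome 17, plus strand, at 7646627 to 7657768 and FXYD6 on chromosome 11, minus strand, at 117836976 to 117877486. FXYD3, FXYD1 and FXYD5 share 1 stretch of chromosome 19, at 35115879 to 35124324, 35138808 to 35143109 and 35154730 to 35169883, all on the plus strand. No strand setting for counting is given in the sources used here, so reads of overlapping models on opposite strands cannot be told apart.

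Neighbours on that stretch did not share 1 line pattern. FXYD3 was an MKN45 transcript, FXYD1, whose start is 22.9 kb downstream of it, an HGC27 transcript, and FXYD5, 38.9 kb downstream, was present in both at like levels. FXYD7, between FXYD1 and FXYD5, was at 0.224 and 0.284 FPKM in vehicle and treated HGC27 and at 0 in MKN45. Of 8 other protein-coding models within 100 kb of the FXYD genes 3 passed the filter, and they are named here although no rule picks them. LSR, a receptor of tricellular junctions, was higher in MKN45 by 4.28 ± 0.29 (limma adjusted p = 4.59e-06), having entered the fit through that line, at 0.595 and 0.393 FPKM in HGC27 and 33.1 and 23.5 FPKM in MKN45. USF2, an E-box transcription factor, and GRAMD1A, a sterol transfer protein, did not differ past the threshold between lines (adjusted p = 0.113 and 0.130), although USF2 passed with library totals alone (-0.85, limma adjusted p = 0.0306). For treatment none of the 3 passed (limma), against 6.78% of all genes. An unadjusted p under 0.05 was found for 1, and 1 passed with limma-voom, against 28.4% and 12.2% of all genes. This was GRAMD1A in both cases, with differences of -1.19 in HGC27 and -1.01 in MKN45 (limma adjusted p = 0.0512). GRAMD1A also passed with library totals alone (-1.32, limma adjusted p = 0.0106) and a pseudocount of 0.1 (-1.35, limma adjusted p = 0.0385). It did not with quantile normalization (-1.03, limma adjusted p = 0.0707) or without a low-value filter (-1.10, limma adjusted p = 0.346).

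**Figure D4:**
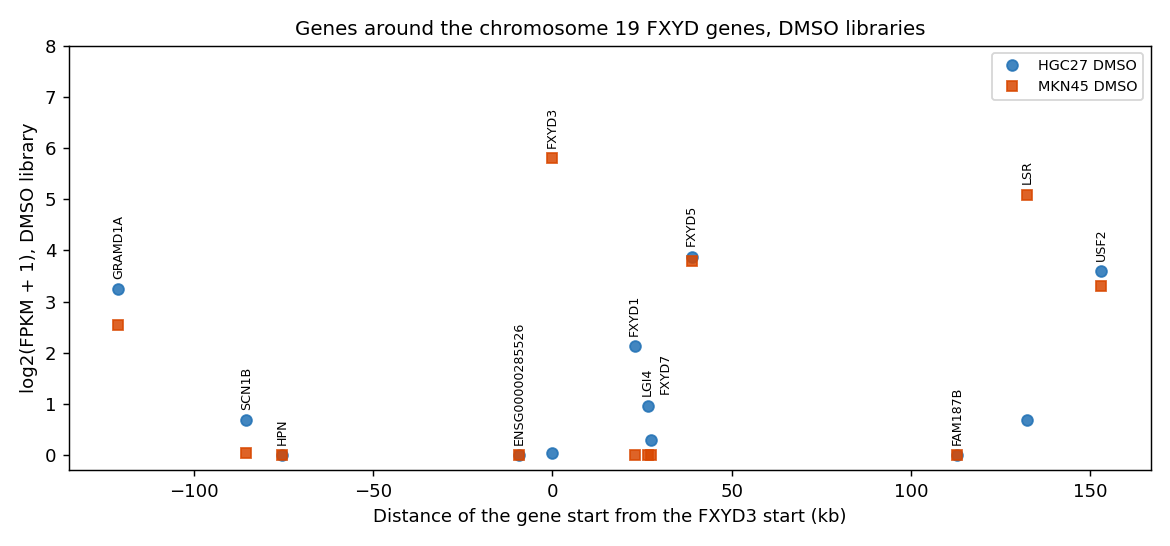
Log2(FPKM + 1) in the DMSO libraries of HGC27 (circles) and MKN45 (squares) for protein-coding models around the chromosome 19 FXYD genes, by distance of their start from that of FXYD3 in kb. FXYD3 and LSR are high in MKN45 alone, FXYD1 in HGC27 alone, and the points of FXYD5 nearly coincide.

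Start-site sequences are shown for the beta subunit with the larger fitted treatment difference and for FXYD3 and FXYD5 of chromosome 19. All 7 members had an entry in the RefSeq promoter table (GRCh38.p14). The bases before the start that lie outside every GENCODE 29 exon are printed 5′ to 3′ on the plus strand, with matches on either strand to 5 motifs in capitals. These are the GC box GGGCGG, the box named after its letters CCAAT, the TATA box spelled TATAAA, the E box spelled CACGTG, and the cAMP response element TGACGTCA. The ATP1B3 and FXYD3 windows lie inside the span of the gene, downstream of its most upstream start in GENCODE 29. ATP1B1 is not printed because its window lies within annotated exons, and FXYD1 because at least 205 of the 250 bases of each of its 3 windows do. No matches overlap in the printed bases.
ATP1B3, chr3:141876395-141876613: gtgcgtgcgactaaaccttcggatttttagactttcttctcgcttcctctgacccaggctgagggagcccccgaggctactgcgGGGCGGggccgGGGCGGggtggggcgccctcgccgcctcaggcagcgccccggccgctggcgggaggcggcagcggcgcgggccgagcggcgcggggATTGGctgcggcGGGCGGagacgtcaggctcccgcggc
FXYD3, chr19:35117750-35117999: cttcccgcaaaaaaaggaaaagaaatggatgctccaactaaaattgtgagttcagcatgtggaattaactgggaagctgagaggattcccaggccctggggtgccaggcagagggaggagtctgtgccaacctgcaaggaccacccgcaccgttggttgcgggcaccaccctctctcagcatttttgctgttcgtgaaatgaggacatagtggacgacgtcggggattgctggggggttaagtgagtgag
FXYD5, chr19:35154485-35154729: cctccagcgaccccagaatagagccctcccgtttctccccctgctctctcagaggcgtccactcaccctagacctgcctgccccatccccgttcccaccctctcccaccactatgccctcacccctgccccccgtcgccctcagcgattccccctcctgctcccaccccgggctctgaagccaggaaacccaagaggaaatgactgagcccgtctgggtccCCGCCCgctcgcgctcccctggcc
The ATP1B3 stretch holds 3 GC boxes and 1 CCAAT box, the FXYD5 stretch 1 GC box and the FXYD3 stretch none of the 5 motifs. In windows of 250 bases, a GC box stands in 42.6% of 35116 RefSeq windows, CCAAT in 32.0%, TATAAA in 10.7%, CACGTG in 6.34% and TGACGTCA in 1.65%. The ATP1B3 and ATP1B1 windows have a GC content of 77.2% and 77.6%, above 93.2% and 93.8% of all windows, with 4 and 2 GC boxes and 1 CCAAT box each, whereas the FXYD3 window is at 53.6% against a median of 58.0%. These matches describe letters and not binding.

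Further genes of the pump family described here are FXYD2, FXYD4, FXYD7, ATP1B4 and the H,K-ATPase genes ATP4A, ATP4B and ATP12A. None of these 7 passed the filter. ATP1B4, ATP4A and ATP4B, the last pair being the acid pump of parietal cells, were listed at 0 in all 4 libraries, as was CBLIF, the intrinsic factor gene of those cells. The highest of the 7 in any library was FXYD4, at 0.456 FPKM in vehicle MKN45.

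Of 24 anchors, kinases and other regulators of the pump 16 were tested for treatment and none passed (limma), with 1 at an unadjusted p under 0.05 and 2 past limma-voom on recovered reads, against 28.4% and 12.2% of all genes. Their median fitted difference was 0.09, against 0.06 over all genes tested. Genes named from here on were chosen after their values were seen. ANK3, an ankyrin that tethers the pump to the spectrin skeleton, was at 0.780 and 0.390 FPKM in vehicle and treated HGC27 and at 16.0 and 2.21 FPKM in MKN45 (fitted -1.38 ± 0.44, limma adjusted p = 0.0834). SGK1, a kinase that raises sodium transport, was at 1.76 and 7.96 FPKM in HGC27 and 0.206 and 0.256 FPKM in MKN45 (0.88 ± 0.41, limma adjusted p = 0.191). The 2 past limma-voom were ANK3 (-2.34, limma-voom adjusted p = 0.00989) and SGK1 (1.77, limma-voom adjusted p = 0.0365). ANK3 also passed with library totals alone (limma adjusted p = 0.0205) and a pseudocount of 0.1 (limma adjusted p = 0.0444). It did not with quantile normalization (limma adjusted p = 0.149) or without a low-value filter (limma adjusted p = 0.409). SGK1 passed under no other alternative. Between lines 4 of the 16 were higher and 4 lower in MKN45 (limma), where 36.0% of all genes were called. Of these 8 genes 6 reached 1 FPKM in 1 line alone and entered the fit through it, so the count is a description. SPTBN1, a spectrin, was higher there by 2.19 ± 0.29 and ADD2, the beta adducin, lower, at -3.93 ± 0.30.

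Of 20 sodium entry and potassium exit genes 14 were tested for treatment and none passed (limma), with 3 at an unadjusted p under 0.05 and 1 past limma-voom, against 28.4% and 12.2% of all genes, and a median fitted difference of 0.03. SLC4A7, a sodium bicarbonate cotransporter, was at 12.5 and 20.03 FPKM in vehicle and treated HGC27 and at 7.77 and 31.6 FPKM in MKN45 (1.27 ± 0.34, limma adjusted p = 0.0553). SLC4A7 was the 1 past limma-voom (1.36, limma-voom adjusted p = 0.0256). It also passed with a pseudocount of 0.1 (limma adjusted p = 0.0339) and the floor of 10 FPKM (limma adjusted p = 0.00107). It did not with library totals alone (limma adjusted p = 0.0529) or quantile normalization (limma adjusted p = 0.125). The potassium channels KCNK1 and KCNK5 had fitted differences of 1.02 ± 0.35 and 0.79 ± 0.28 (limma adjusted p = 0.0980 and 0.107). KCNK1 passed only with the floor of 10 FPKM (limma adjusted p = 0.0274). Between lines 9 of the 14 were higher in MKN45 and 1 lower (limma), against 36.0% of all genes called. Of these 10 genes 6, SCNN1A among them, reached 1 FPKM in 1 line alone and entered the fit through it, so the count is a description. SCNN1A, the alpha subunit of the epithelial sodium channel, was at 31.2 and 29.1 FPKM in MKN45 and 0.127 and 0.0361 FPKM in HGC27, higher in MKN45 by 4.85 ± 0.29 (limma adjusted p = 2.22e-06).

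**Figure D5:**
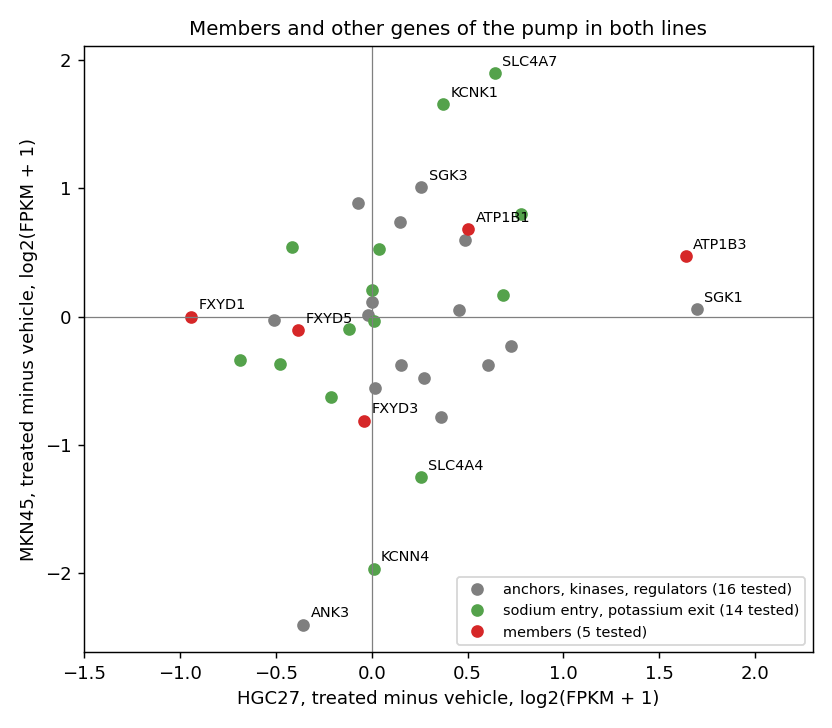
Treated minus vehicle difference of log2(FPKM + 1) in HGC27 (x axis) and MKN45 (y axis) for the 5 tested members, 16 tested regulators and 14 tested ion routes, 1 point per gene with no error. ATP1B3 lies at 1.64 and 0.47, FXYD3 at -0.04 and -0.81, and members and genes past 1 in size in either line are named.

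Against 4222 other protein-coding genes that averaged 10 FPKM or more, those with the most similar profile to each member over the 4 libraries were found by Euclidean distance between centred log2(FPKM + 1) profiles. With 4 points such likeness is a description. Nearest to ATP1B3 were PIM3, GTF3C1 and PNP (distances 0.109, 0.165 and 0.166), and 126 genes lay within 0.5. Nearest to ATP1B1 were C12orf75, DUSP4 and PDZK1 (0.196, 0.297 and 0.370), with 13 genes within 0.5. Nearest to FXYD3 were FOXQ1, EVPL and S100A14 (0.144, 0.174 and 0.237), with 11 within 0.5, and nearest to FXYD5 were PPP1R7, OCRL and AKR1A1 (0.0866, 0.103 and 0.121), with 286 within 0.5. FOXQ1, EVPL and S100A14 were, like FXYD3, under 0.2 FPKM in both HGC27 libraries and lower in the treated than in the vehicle MKN45 library. They were picked by this profile, so the shared pattern is no separate result.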

How the data were processed

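Poly(A) libraries of HGC27 and MKN45, 1 per line and treatment, were grouped by the sample titles. The authors deposited 1 table of FPKM for 62710 Ensembl genes, a unit read from its values because its header names none. The names fastp 2.0, HISAT2 2.1.0 and the build hg38 are listed, without roles, per the submitters' processing notes. For the counter, annotation and strand setting, nothing is given in the sources used here. Symbols matched 62639 genes.

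Reads were recovered from FPKM steps, whole within 0.0001 reads, at the GENCODE 29 exon length (15204 of 30457 genes above 0 with such a length) or at the shortest length giving whole reads in every library. For genes above 0 in at least 2 libraries 25904 of 25904 were solved. Where that length was far under the annotated one, the multiple nearest the annotated length was taken. These recovery rules were revised after their output was seen, including the extension to genes above 0 in 2 libraries, which gives ATP1B2 and FXYD1 their reads. Recovered reads set depth, intervals and the read minimum.

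Treatment and line were fitted with limma 3.58.1 in R 4.3.3 on log2(FPKM + 1), with trend, at an adjusted p of 0.05. The script was tested on simulated data. Alternatives were a pseudocount of 0.1, no filter, a floor of 10 FPKM, quantile normalization, library totals, limma-voom, each term left out and each line or treatment alone. GENCODE 29 lengths were added after seeing the data. Treated and vehicle libraries share a line, so the line served as the block. All 7 members are named. List genes were named if past the treatment threshold or, for the pump family, at a mean of at least 1 FPKM. Exceptions are stated. Some genes that this rule picks are not reported here. Members and lists were chosen with earlier results of these data known.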

Additional observations from a re-analysis of the deposited data

Results flagged for a closer look

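Of 40 genes scanned (the members and the tested regulators, ion routes and chromosome 19 neighbours, without the cell type markers), 13 had treated minus vehicle differences of log2(FPKM + 1) of opposite sign in HGC27 and MKN45. No member was among them. ATP1B2 and FXYD1 could not be, because both had 0 reads in both MKN45 libraries. FXYD3 had only 3 and 0 reads in vehicle and treated HGC27. FXYD6 had only 13 and 6 reads in vehicle and treated MKN45. With quantile normalization its difference was -0.16 in HGC27 and 0.06 in MKN45, which are opposite in sign. The share of opposite signs over all genes was not computed, so these counts are a description. With 1 library per line and treatment the difference between lines was not tested. Among regulators the HGC27 and MKN45 values were 0.36 and -0.78 for ADD3, 0.0167 and -0.55 for NEDD4, -0.074 and 0.88 for NEDD4L, 0.61 and -0.38 for PRKACA, 0.27 and -0.48 for PRKCA, -0.0172 and 0.0128 for PON2, 0.15 and -0.38 for CANX and 0.73 and -0.23 for HSPA5. Among ion routes they were -0.42 and 0.54 for SLC9A3, 0.26 and -1.25 for SLC4A4, 0.00956 and -0.0313 for SLC8A1 and 0.0103 and -1.96 for KCNN4. The chromosome 19 neighbour USF2 had 0.24 and -0.54.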

How the results depend on the processing

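With 1 library per line and treatment, missing replicates limit every comparison. Depth also limits FXYD5 in MKN45, whose ratio counting error covers, and ATP1B2, FXYD6 in MKN45 and FXYD3 in HGC27, which rest on 30 reads or fewer. The treatment fit called 839 genes, against 1489 with a pseudocount of 0.1, 0 without a low-value filter, 553 with quantile normalization, 1556 with library totals alone and 1512 with limma-voom. With the floor of 10 FPKM it called 1248 of 4454 genes (28.0%). The median fitted difference was 0.38 there, against 0.06 in the main fit. Without the replicate block (line left out, which removes the pairing) it called 0 genes (limma; 695 at an unadjusted p under 0.05), and without a filter 4306 of 32364 were under that p. Of the members 0 passed, and 1, ATP1B3, passed with the pseudocount of 0.1 (1.07, adjusted p = 0.0492), the floor of 10 FPKM (1.05, adjusted p = 0.00824) and limma-voom (1.05, adjusted p = 0.0484). Its adjusted p over 7 alternatives ran from 0.00824 to 0.830, the latter without the replicate block, and leaving out 1 line gave 0.47 to 1.64. The line fit called 4457 genes, and 1087, 1837 and 1979 without a filter, with the floor and with treatment left out. FXYD1 no longer passed between lines without a filter or with treatment left out (-1.65, adjusted p = 0.108 and 0.0530). With treated or vehicle libraries alone the line difference was 5.00 to 5.77 for FXYD3, -2.12 to -1.18 for FXYD1 and -0.18 to 0.99 for ATP1B3, which changes direction. With 1 line alone the treatment difference was -0.94 to 0 for FXYD1 and -0.81 to -0.039 for FXYD3. The FXYD5 line difference turned to -0.0519 (quantile normalization) and -0.123 (library totals), and that of SLC4A7, near 0, to -0.00978 (pseudocount of 0.1), -0.144 (quantile normalization) and -0.178 (library totals). Members past a difference of 1 were 1 in HGC27, and 2 with a pseudocount of 0.1 or library totals. In MKN45 they were 0, and 1 with quantile normalization or library totals. ATP1B1, at 1.26 in HGC27 with the pseudocount of 0.1, averaged under 1 FPKM there on deposited values and was not counted. In the main setting 9.72% of measured genes were higher and 10.4% lower by that size in HGC27, and 8.21% and 8.94% in MKN45. The shares of all genes under the alternatives were not computed, so these counts are a description. The ATP1B3 share of beta reads, not per length, was 95.6%, 96.5%, 36.1% and 32.6% in vehicle and treated HGC27 and MKN45, and 96.2%, 97.0%, 39.4% and 35.7% at GENCODE 29 lengths. The FXYD3 share of FXYD reads in MKN45 was 82.8% and 74.6%. Causes of these moves were not tested, apart from lengths in the shares.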
